A study of Mus musculus with 14 samples.

Results

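Genes of glycolysis and of the pentose phosphate pathway, with the carriers of glucose and lactate and the kinases that steer them, were followed across sorted fractions of FDCPmix, a mouse bone marrow progenitor line kept in interleukin-3 and able to form cells of more than 1 blood lineage. The genes were chosen by name, 33 in all, and probes were assigned to them through the transcript accession that the scanner files pair with each probe. Probes matched 31 of the 33 genes, while Gapdh and Pgd had no probe matched by accession and were not analysed here. These 31 genes stand against 31256 genes tested on the array and were read by 47 probes of 41174. Of the 31, 20 had 1 probe and 11 had more, up to 5 for Hk1. The probe with the highest mean signal stood for its gene, and for 30 of the 31 genes it was well above background on all 14 arrays, Eno2 being the exception.

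All samples came from FDCPmix maintenance cultures, which is 1 line with no further treatment or genotype. The cells were stained and sorted by surface antigens into Kit-Gr1- cells (3 arrays), Gr1+ cells (3), Kit+Gr1-Sca1hi cells (3) and Kit+Gr1-Sca1lo cells (3), and unfractionated culture gave 2 arrays. Kit is the receptor for stem cell factor, Gr1 an antigen of granulocytes and Sca1 a surface protein encoded by Ly6a. Replicates are described as biological in the design text. RNA was labelled with Cy3 and hybridised to single-colour oligonucleotide arrays. A level is here the log2 of the processed signal minus the 75th percentile of its own array, and differences are on the log2 scale with the standard error from limma after ±, unless SD is written. Levels of different probes have no common scale and are not set against each other, except where lineage markers are summed. The words rose and fell are kept for genes whose Benjamini-Hochberg adjusted p over all 31256 genes was under 0.05. Since RNA was pooled from many cells, fewer cells of a type and less RNA per cell cannot be told apart.

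Glycolysis splits glucose into pyruvate, and lactate dehydrogenase and the lactate carriers dispose of the surplus. The pentose phosphate pathway branches off after hexokinase and yields NADPH, which phagocytes spend on their oxidase, together with ribose for nucleotides. Several steps have more than 1 gene whose products differ in kinetics and in where they are made. Neutrophils are known for a strongly glycolytic metabolism, and red cells for a shunt of glycolysis that makes bisphosphoglycerate, which loosens the hold of haemoglobin on oxygen.

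The 250 bases before the transcription start are shown for the 6 genes that differed between Gr1+ and Kit+Gr1- cells, since these genes carry the findings that follow. The sequences are RefSeq's on mouse build GRCm38.p6, run 5′ to 3′ along the gene's strand and end at the base before the start. They lie at chr11:120948817-120949066 on the plus strand for Slc16a3, chr3:104638414-104638663 on the plus strand for Slc16a1 and chr13:55021386-55021635 on the minus strand for Hk3. Those of Pfkfb4, G6pdx and Bpgm lie at chr9:108991652-108991901 on the plus strand, chrX:74428881-74429130 on the minus strand and chr6:34476106-34476355 on the plus strand. Capitals mark the core of the hypoxia response element, ACGTG or GCGTG, on either strand.
Slc16a3: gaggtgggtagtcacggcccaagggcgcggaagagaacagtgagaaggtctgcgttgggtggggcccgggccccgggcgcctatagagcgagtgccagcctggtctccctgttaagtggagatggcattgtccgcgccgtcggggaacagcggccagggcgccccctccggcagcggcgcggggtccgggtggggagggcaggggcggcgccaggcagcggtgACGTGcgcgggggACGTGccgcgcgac
Slc16a1: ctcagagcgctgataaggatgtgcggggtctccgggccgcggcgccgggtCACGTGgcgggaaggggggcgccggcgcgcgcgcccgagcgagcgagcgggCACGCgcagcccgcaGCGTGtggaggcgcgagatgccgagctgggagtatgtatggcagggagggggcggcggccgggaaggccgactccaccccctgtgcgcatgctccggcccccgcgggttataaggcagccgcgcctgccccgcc
Hk3: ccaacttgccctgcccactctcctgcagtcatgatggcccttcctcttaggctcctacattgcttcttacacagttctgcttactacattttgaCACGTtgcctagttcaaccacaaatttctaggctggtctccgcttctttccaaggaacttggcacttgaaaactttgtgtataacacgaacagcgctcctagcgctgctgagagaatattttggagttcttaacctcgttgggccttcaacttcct
Pfkfb4: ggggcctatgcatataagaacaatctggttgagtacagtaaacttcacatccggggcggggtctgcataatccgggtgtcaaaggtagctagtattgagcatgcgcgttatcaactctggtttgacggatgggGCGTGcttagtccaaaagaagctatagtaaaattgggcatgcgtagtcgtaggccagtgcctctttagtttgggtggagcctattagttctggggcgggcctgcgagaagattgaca
G6pdx: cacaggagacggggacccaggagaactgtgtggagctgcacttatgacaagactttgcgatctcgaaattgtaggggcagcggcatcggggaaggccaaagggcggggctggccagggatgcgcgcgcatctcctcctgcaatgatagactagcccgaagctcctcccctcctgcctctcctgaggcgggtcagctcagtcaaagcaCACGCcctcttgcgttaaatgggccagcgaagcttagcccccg
Bpgm: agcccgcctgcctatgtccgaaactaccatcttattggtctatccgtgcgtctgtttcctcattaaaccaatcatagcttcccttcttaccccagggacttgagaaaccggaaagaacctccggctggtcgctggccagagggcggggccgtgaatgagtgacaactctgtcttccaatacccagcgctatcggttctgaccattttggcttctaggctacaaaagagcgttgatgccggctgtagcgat
Slc16a3 held 2 matches to this core, starting 27 and 14 bases before the start. Slc16a1 held 4, of which 2 overlap in the single E-box CACGTG, while Hk3, Pfkfb4 and G6pdx held 1 each and Bpgm 0. The core was present in 38.6% of 32851 mouse promoters of this length and in 73.5% of the 49 promoters of the genes followed here (28 of 32 genes with a sequence, Gapdh and Pgd included; Slc2a3 was not in the table). A match describes the letters and is no evidence of binding, and it stood before genes that rose as well as before Slc16a1, which fell.

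The arrays were not all of 1 quality. On Gr1+ replicate 3, Sca1hi replicate 3 and Sca1lo replicate 3 the log2 signals were compressed, with interquartile ranges of 3.01, 2.37 and 3.41, against 4.16 to 4.92 on the other 9 sorted arrays. Unfractionated replicate 1 had an interquartile range of 1.77 and correlated with its pair at r = 0.514 over probes. The fits therefore used the 12 sorted arrays, and differences of called genes are also given without the 3 compressed ones. Arrays were grouped into 4 sets by the scan date in their headers. Such a set is called a slide here, although no slide name was read from the headers and the sample titles give none. Slide 1 held replicate 1 of all 4 fractions, slide 2 Sca1lo and slide 3 Sca1hi beside both other fractions. A difference from Kit+Gr1- cells thus has another comparator on each of these slides. Of the sorted arrays, slide 4 held only the compressed Sca1hi replicate 3 and Sca1lo replicate 3. It gives no within-slide difference between Kit+Gr1- cells and the other fractions. The Kit gate was visible in Kit RNA, which was lower in Kit-Gr1- than in Kit+Gr1- cells by 2.20 on the log2 scale (adjusted p = 0.000884). In Gr1+ versus Kit+Gr1- cells Kit RNA measured 0.31 ± 0.22 and did not pass (adjusted p = 0.767).

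Between Gr1+ and Kit+Gr1- cells, 6 of the 31 genes changed, against 7.01% of all genes tested. Slc16a3, Hk3, G6pdx and Pfkfb4 rose (4.19% of all genes did) and Slc16a1 and Bpgm fell (2.82%). Between Kit-Gr1- and Gr1+ cells 5 changed, against 5.01% of all genes: Bpgm and Slc16a1 were higher (2.37% of all genes) and Slc16a3, Hk3 and Pfkfb4 lower (2.64%) in Kit-Gr1- cells. Between Kit-Gr1- and Kit+Gr1- cells limma called 0 of the 31, against 0.323% of all genes, and 3 had an unadjusted p under 0.05. Between Sca1hi and Sca1lo cells limma called 0 of the 31, against 0% of all genes, and 0 had an unadjusted p under 0.05. The first 3 comparisons share arrays, so the same values enter more than 1 of them. Scaling to array medians left Slc16a3 alone in Gr1+ versus Kit+Gr1- cells (2.06% of all genes) and 0 genes in Kit-Gr1- versus Gr1+ cells (1.71%). A fit over all 14 arrays left 2 (2.04%) and 1 (1.53%). Without the compressed arrays 6 genes were called in each of these comparisons, against 14% and 11.6% of all genes, and 0 in Kit-Gr1- versus Kit+Gr1- cells, against 0.521%. With slide as a block the calls were 9 and 11, against 15.7% and 13%, and 0 in the others, against 0.777% and 0.0096%. With replicate number as a block, Gpi1, Eno1 and Slc2a1 joined the 6 genes called in Gr1+ versus Kit+Gr1- cells (9 in all, against 9.08% of all genes). The labels give no pairing by this number. The compressed sorted arrays all carry number 3, so pairing and shared compression cannot be told apart.

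**Figure D1:**
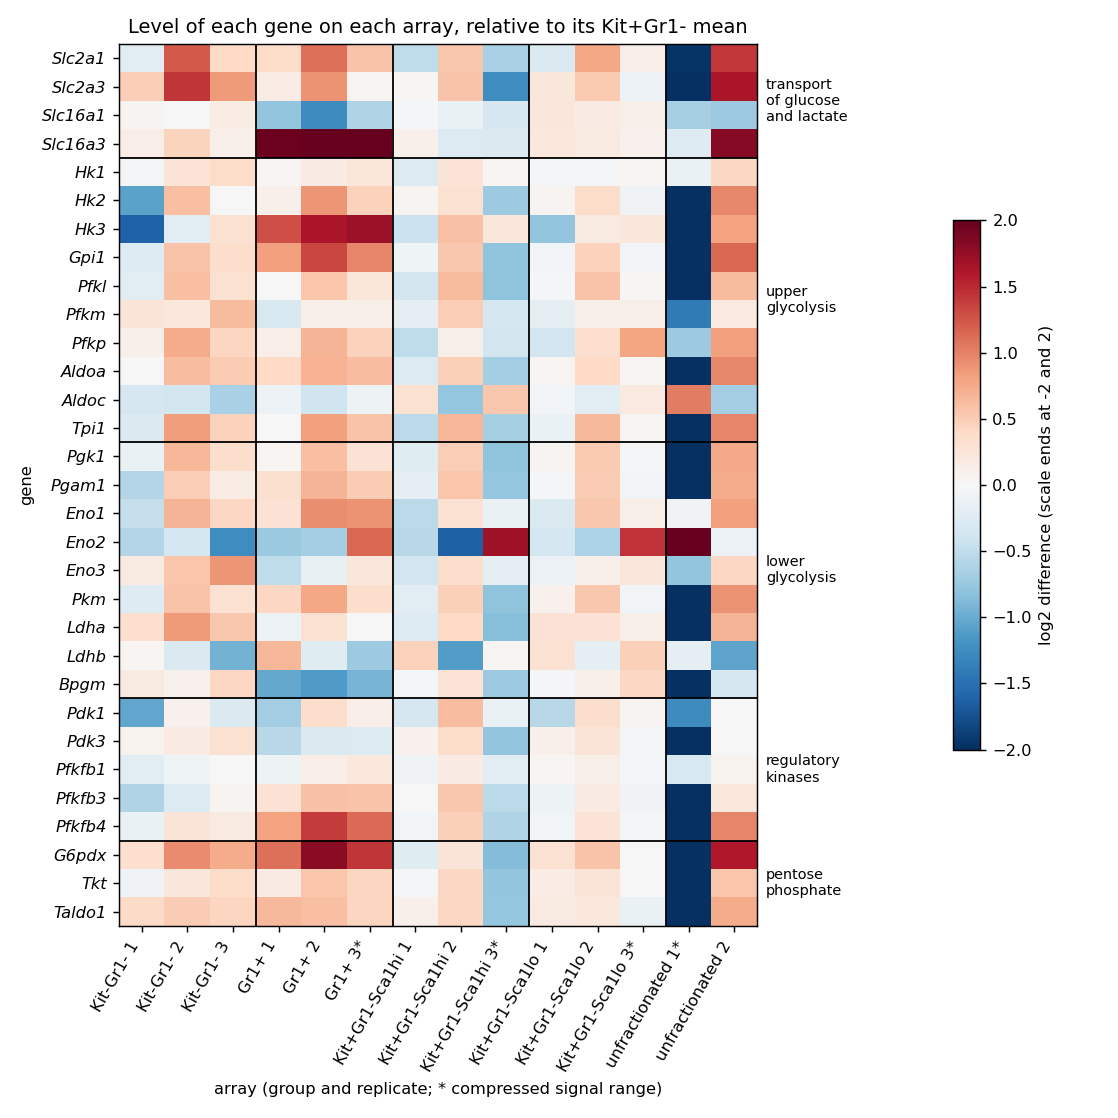
Level of each of the 31 genes (rows, grouped by role) on each of the 14 arrays (columns), as the log2 difference from the gene's mean over the 6 Kit+Gr1- arrays; the colour scale ends at -2 and 2 and asterisks mark compressed arrays. Slc16a3 is high on all 3 Gr1+ arrays, and unfractionated replicate 1 lies outside the range of the sorted arrays for 26 of the 31 genes.

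Of the 4 carrier genes, 1 rose (4.19% of all genes did) and 1 fell (2.82%) in Gr1+ versus Kit+Gr1- cells. Both were monocarboxylate carriers, which move lactate and pyruvate across the cell membrane. Slc16a3 encodes MCT4, the lactate exporter of strongly glycolytic cells. Its level was -0.03, 0.28 and -0.06 in Kit-Gr1- cells and 1.80, 2.26 and 1.96 in Gr1+ cells, against -0.06, -0.44 and -0.44 in Sca1hi cells and 0.05, 0.02 and -0.08 in Sca1lo cells. All 3 Gr1+ arrays lay above every other sorted array. Slc16a3 thus rose in Gr1+ cells by 2.17 ± 0.16 over Kit+Gr1- cells (4.49-fold, adjusted p = 8e-06), with 1.80, 2.24 and 2.40 within slides 1, 2 and 3. It was lower in Kit-Gr1- than in Gr1+ cells by 1.94 on the log2 scale (difference -1.94 ± 0.19, adjusted p = 7.3e-05). In Kit-Gr1- versus Kit+Gr1- cells it measured 0.22 ± 0.16 and did not pass. This rise was called under all 30 alternatives tried, with differences from 1.96 to 2.32. Without the compressed arrays the differences were 2.14 (adjusted p = 0.000415) from Kit+Gr1- cells and -1.96 (adjusted p = 0.000782) between Kit-Gr1- and Gr1+ cells.

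Slc16a1, which encodes MCT1, the more widely expressed carrier, was lower in Gr1+ cells. Its level was 2.51, 2.46 and 2.60 in Kit-Gr1- cells and 1.66, 1.19 and 1.86 in Gr1+ cells, against 2.43, 2.32 and 2.12 in Sca1hi cells and 2.67, 2.62 and 2.56 in Sca1lo cells. The Gr1+ arrays lay below all other sorted arrays. Slc16a1 fell in Gr1+ cells, with a difference from Kit+Gr1- cells of -0.89 ± 0.16 (1.85-fold, adjusted p = 0.00379), and Kit-Gr1- cells exceeded Gr1+ cells by 0.95 ± 0.18 (adjusted p = 0.00808). Its other probes measured -0.91 (adjusted p = 0.0098) and -0.47 (adjusted p = 0.583) in Gr1+ versus Kit+Gr1- cells, so 1 of the 3 did not pass. In Kit-Gr1- versus Gr1+ cells the same 1 did not pass either, at 0.31 (adjusted p = 0.71), beside 1.055 (adjusted p = 0.0134) for the other. Without the compressed arrays the main probe gave -1.08 (adjusted p = 0.00245) in Gr1+ versus Kit+Gr1- cells. It gave 1.09 (adjusted p = 0.00373) in Kit-Gr1- versus Gr1+ cells. Within slides 1, 2 and 3 the difference of the main probe was -0.89, -1.43 and -0.46. Both Slc16a1 calls ended with array medians (adjusted p = 0.492 and 0.248). The call in Kit-Gr1- versus Gr1+ cells also ended with unscaled series values, with all 14 arrays and without Gr1+ replicate 2.

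The ratio of the carriers on the same array is free of the scaling between arrays. The log2 ratio of Slc16a3 to Slc16a1 was -2.54, -2.18 and -2.65 in Kit-Gr1- cells and 0.14, 1.07 and 0.11 in Gr1+ cells, and it lay between -2.75 and -2.49 on the 6 Kit+Gr1- arrays. Its mean was 0.437 ± 0.546 in Gr1+ cells (SD, n = 3), against -2.61 ± 0.0883 in Kit+Gr1- cells (SD, n = 6). The ratio was thus 8.29 times higher in Gr1+ cells, a difference of 3.05 (exact permutation test, two-sided, p = 0.0238, the smallest that 3 against 6 arrays allow; adjusted p = 0.155 over 26 such tests). The difference was 2.69, 3.67 and 2.86 within slides and 3.22 without the compressed arrays.

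The glucose carriers did not pass in any comparison of the main fit. In Gr1+ versus Kit+Gr1- cells Slc2a1 passed under 2 of 30 alternatives, among them the replicate block (0.68, adjusted p = 0.0215, against 0.421 without it). In Kit-Gr1- versus Kit+Gr1- cells it passed under 2 of 30 (lowest adjusted p = 0.00566). The replicate block was not among those (adjusted p = 0.356). Slc2a1, the GLUT1 carrier of growing and hypoxic cells, had levels of 2.12, 3.58 and 2.74 in Kit-Gr1- cells and 2.72, 3.46 and 2.93 in Gr1+ cells, against 1.85, 2.89 and 1.70 in Sca1hi cells and 2.06, 3.12 and 2.48 in Sca1lo cells. Slc2a3, the high-affinity GLUT3 carrier, had levels of 4.76, 5.70 and 5.12 in Kit-Gr1- cells and 4.41, 5.17 and 4.31 in Gr1+ cells, against 4.29, 4.84 and 3.02 in Sca1hi cells and 4.49, 4.79 and 4.14 in Sca1lo cells. The groups overlapped for both carriers. The Slc2a3 difference of 0.93 ± 0.36 between Kit-Gr1- and Kit+Gr1- cells (adjusted p = 0.639) was the largest of the 31 genes in that comparison, and it was 0.59 without the compressed arrays and 0.51 with slide as a block.

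**Figure D2:**
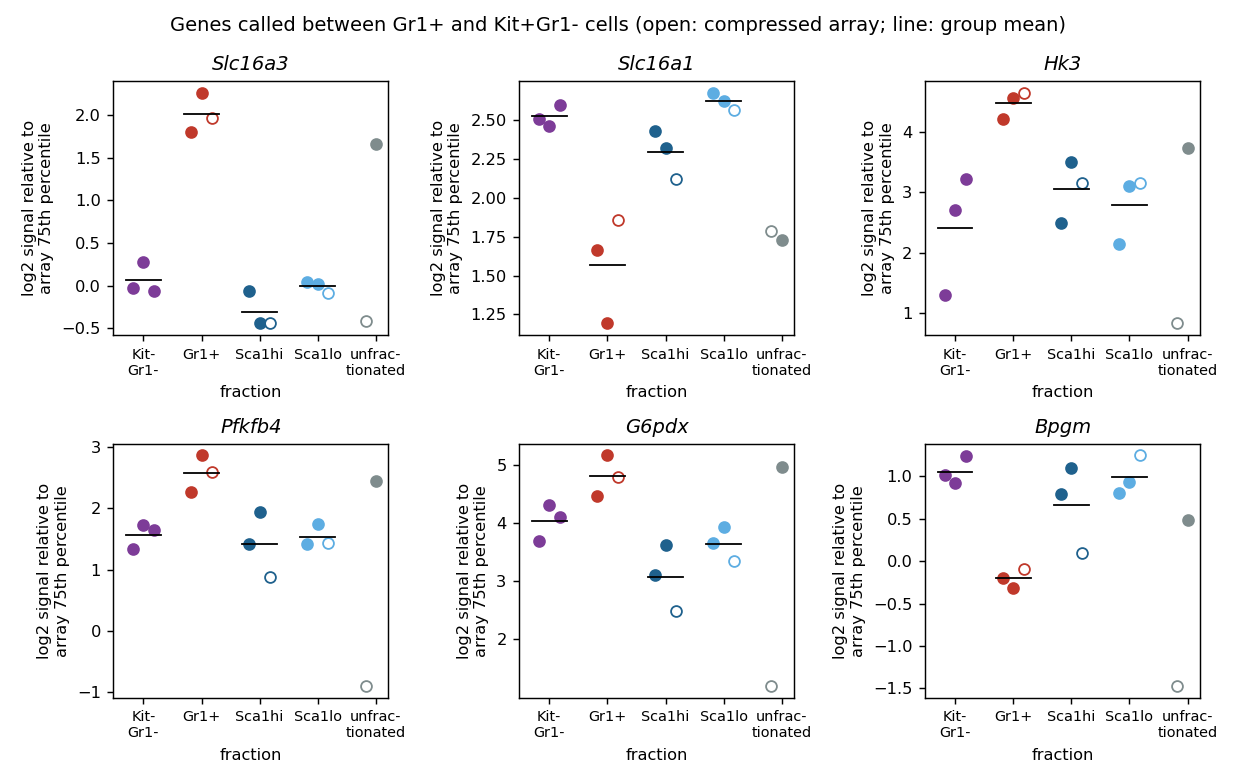
Level (log2 signal relative to the array's 75th percentile) of the 6 genes called between Gr1+ and Kit+Gr1- cells, 1 point per array by fraction, with open points for compressed arrays and a line at each mean of 3. Gr1+ points lie apart from all other sorted points for Slc16a3, Slc16a1, Hk3, Pfkfb4, G6pdx and Bpgm.

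In upper glycolysis, from hexokinase to triose phosphate isomerase, 1 of 10 genes rose in Gr1+ versus Kit+Gr1- cells (4.19% of all genes did). Hk3, a hexokinase found mainly in myeloid cells, had levels of 1.30, 2.71 and 3.23 in Kit-Gr1- cells and 4.21, 4.56 and 4.65 in Gr1+ cells, against 2.49, 3.50 and 3.15 in Sca1hi cells and 2.13, 3.10 and 3.15 in Sca1lo cells. The Gr1+ arrays were the highest, and the Kit-Gr1- arrays spread most widely. Hk3 rose by 1.55 ± 0.38 in Gr1+ versus Kit+Gr1- cells (2.93-fold, adjusted p = 0.0255), with 1.90, 1.46 and 1.15 within slides. Without the compressed arrays its difference was 1.58 but the adjusted p was 0.0757. The call also ended in each fit without a Gr1+ array (adjusted p = 0.0597, 0.136 and 0.0822 without replicates 1, 2 and 3), without replicate 1 of either Kit+Gr1- group (0.0566 and 0.0587) and against Sca1hi cells alone (0.103). In Kit-Gr1- versus Gr1+ cells the Hk3 difference was -2.06 ± 0.44 (4.17-fold, adjusted p = 0.0156), which ended without Kit-Gr1- replicate 1 (adjusted p = 0.0501) or without Gr1+ replicate 2 (adjusted p = 0.0766) and was -1.97 without the compressed arrays (adjusted p = 0.0451).

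The other hexokinases did not pass. Hk1, the housekeeping form, measured 0.14 in Gr1+ versus Kit+Gr1- cells, and its 5 probes ranged from -0.21 to 0.15. Hk2, the form induced by hypoxia and insulin, measured 0.48 ± 0.33 (adjusted p = 0.706). The log2 ratio of Hk3 to Hk2 averaged 1.01 ± 0.273 in Gr1+ cells (SD, n = 3), against -0.0592 ± 0.645 in Kit+Gr1- cells (SD, n = 6), a difference of 1.07 (exact permutation p = 0.0476, adjusted p = 0.206) with 1.85, 0.94 and 1.00 within slides. The highest Kit+Gr1- array for this ratio, at 0.90, was the compressed Sca1hi replicate 3, and it overlapped the Gr1+ arrays.

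Gpi1, which turns glucose phosphate into fructose phosphate, did not pass although its groups did not overlap. Its level was 6.59, 7.42 and 7.20 in Kit-Gr1- cells and 7.66, 8.18 and 7.83 in Gr1+ cells, against 6.77, 7.39 and 6.05 in Sca1hi cells and 6.79, 7.31 and 6.78 in Sca1lo cells. The difference between Gr1+ and Kit+Gr1- cells was 1.04 ± 0.31 (adjusted p = 0.0683), and it passed with slide as a block (0.74, adjusted p = 0.0414) and with the replicate block (adjusted p = 0.036). Of the phosphofructokinase genes, whose products catalyse the committed step, Pfkl measured 0.26, Pfkm -0.03 and Pfkp 0.42 ± 0.25 in the same comparison. The second Pfkp probe gave -0.17, so the probes of that gene disagree in sign. Pfkm lay higher on every Kit-Gr1- array than on any Gr1+ array, at 0.40 ± 0.23 (adjusted p = 0.552). Pfkp levels were 1.64, 2.29 and 1.98 in Kit-Gr1- cells and 1.67, 2.23 and 2.00 in Gr1+ cells, against 1.04, 1.67 and 1.19 in Sca1hi cells and 1.17, 1.88 and 2.33 in Sca1lo cells. Among the aldolases, Aldoa measured 0.57 ± 0.29, and Aldoc, the brain form, had levels of -1.80, -1.84 and -2.12 in Kit-Gr1- cells and -1.60, -1.87 and -1.57 in Gr1+ cells, against -1.17, -2.25 and -0.94 in Sca1hi cells and -1.52, -1.69 and -1.27 in Sca1lo cells. Its highest array was the compressed Sca1hi replicate 3. Tpi1 measured 0.46 ± 0.35.

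Of the 5 regulatory kinases, 1 rose in Gr1+ versus Kit+Gr1- cells (4.19% of all genes did). Among them are the bifunctional Pfkfb enzymes, which set the level of an activator of phosphofructokinase. Pfkfb4 had levels of 1.34, 1.73 and 1.65 in Kit-Gr1- cells and 2.27, 2.87 and 2.60 in Gr1+ cells, against 1.42, 1.95 and 0.88 in Sca1hi cells and 1.42, 1.74 and 1.43 in Sca1lo cells. Each Gr1+ array was above every other sorted array. Pfkfb4 rose by 1.11 ± 0.22 in Gr1+ versus Kit+Gr1- cells (2.16-fold, adjusted p = 0.00766), with 0.85, 1.13 and 0.66 within slides and 0.94 without the compressed arrays (adjusted p = 0.0231). The call ended without Gr1+ replicate 2 (adjusted p = 0.0773), with array medians and in the fit over all 14 arrays. In Kit-Gr1- versus Gr1+ cells it measured -1.01 ± 0.25 (adjusted p = 0.0389), a call that held in 16 of 28 alternatives, among them the fit without the compressed arrays (-0.997, adjusted p = 0.0265).

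Pfkfb3, a relative found in many dividing and inflammatory cells, had levels of 2.31, 2.64 and 2.96 in Kit-Gr1- cells and 3.19, 3.50 and 3.46 in Gr1+ cells, against 2.91, 3.44 and 2.37 in Sca1hi cells and 2.79, 3.07 and 2.83 in Sca1lo cells. Its Kit-Gr1- and Gr1+ arrays did not overlap, but the difference of -0.75 ± 0.26 did not pass (adjusted p = 0.137), though it did with slide as a block (adjusted p = 0.00995). In Gr1+ versus Kit+Gr1- cells its 3 probes gave 0.48, 0.10 and 0.57. The log2 ratio of Pfkfb4 to Pfkfb3 averaged -1.06 ± 0.218 in Kit-Gr1- cells (SD, n = 3) and -0.803 ± 0.156 in Gr1+ cells (SD, n = 3), against -1.43 ± 0.07 in Kit+Gr1- cells (SD, n = 6). Neither fraction overlapped the Kit+Gr1- arrays, at exact permutation p = 0.0238 for each and adjusted p = 0.155. Pfkfb1, known from liver and muscle, measured 0.08 ± 0.15 in Gr1+ versus Kit+Gr1- cells. The pyruvate dehydrogenase kinases, which hold pyruvate back from the mitochondrion, measured -0.06 ± 0.32 (Pdk1) and -0.37 ± 0.22 (Pdk3). Pdk3 passed without the compressed arrays (-0.62, adjusted p = 0.022) and with slide as a block (-0.61, adjusted p = 0.0203).

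**Figure D3:**
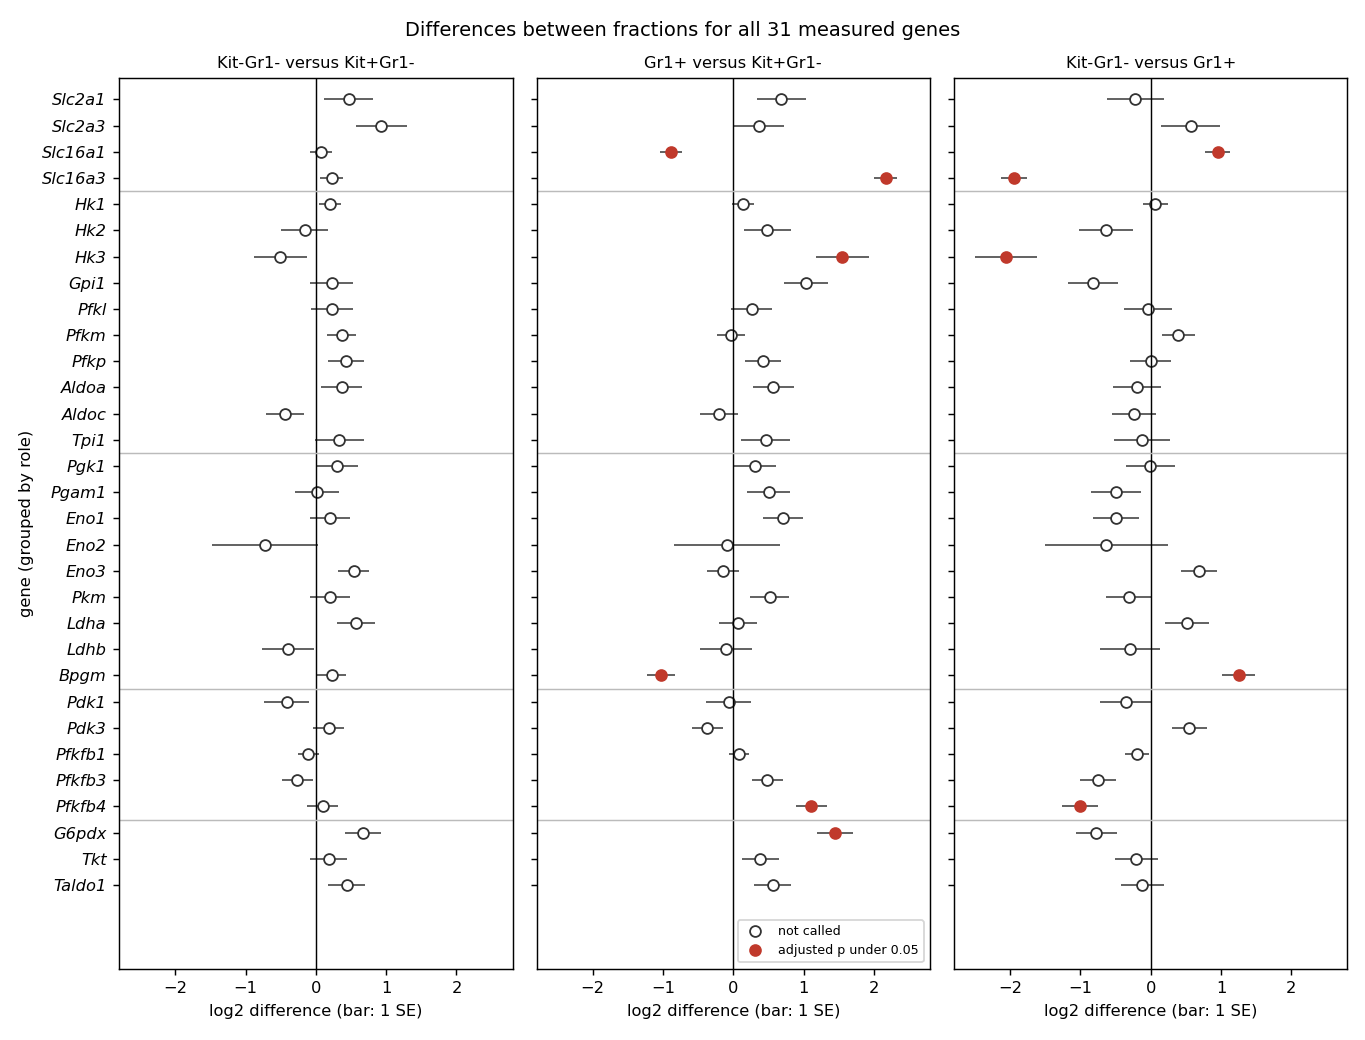
Log2 difference of each of the 31 genes, grouped by role, in Kit-Gr1- versus Kit+Gr1-, Gr1+ versus Kit+Gr1- and Kit-Gr1- versus Gr1+ cells; bars are 1 standard error and filled points have an adjusted p under 0.05. The first panel holds 0 filled points, the second 6 and the third 5.

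In lower glycolysis, 1 of 9 genes changed in Gr1+ versus Kit+Gr1- cells (7.01% of all genes did). Bpgm makes the bisphosphoglycerate that tunes haemoglobin in red cells. Its level was 1.01, 0.91 and 1.23 in Kit-Gr1- cells and -0.20, -0.31 and -0.10 in Gr1+ cells, against 0.79, 1.09 and 0.10 in Sca1hi cells and 0.80, 0.93 and 1.25 in Sca1lo cells. The Gr1+ arrays were the lowest sorted ones, and the compressed Sca1hi replicate 3 came nearest to them. Bpgm fell in Gr1+ cells, differing from Kit+Gr1- cells by -1.03 ± 0.21 (2.04-fold, adjusted p = 0.00777), with -0.995, -1.24 and -1.19 within slides and -1.16 without the compressed arrays (adjusted p = 0.00216). Its second probe gave -0.79 and did not pass (adjusted p = 0.111). The call of the main probe ended without Gr1+ replicate 2 (adjusted p = 0.0656) and against Sca1hi cells alone (adjusted p = 0.0624). It also ended with array medians and in the fit over all 14 arrays. Kit-Gr1- cells exceeded Gr1+ cells by 1.25 ± 0.24 (2.39-fold, adjusted p = 0.00755), with 1.21, 1.23 and 1.33 within slides and 1.31 without the compressed arrays (adjusted p = 0.0021), while the second probe did not pass there either (adjusted p = 0.116). Against Kit+Gr1- cells the Kit-Gr1- fraction measured 0.23 ± 0.21 and did not pass. Markers of red cells were higher in Kit-Gr1- cells, as given further on, and their part in the Bpgm difference was not tested.

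Enolase makes phosphoenolpyruvate, and its genes are known as the common (Eno1), neuronal (Eno2) and muscle (Eno3) forms. Eno1 had levels of 0.76, 1.92 and 1.65 in Kit-Gr1- cells and 1.52, 2.16 and 2.14 in Gr1+ cells, against 0.70, 1.54 and 1.11 in Sca1hi cells and 0.94, 1.78 and 1.35 in Sca1lo cells. In Gr1+ versus Kit+Gr1- cells it measured 0.70 ± 0.29 (adjusted p = 0.217) and passed with slide as a block (adjusted p = 0.00873) and with the replicate block (adjusted p = 0.00788). Eno3 had levels of 0.19, 0.57 and 0.89 in Kit-Gr1- cells and -0.50, -0.14 and 0.24 in Gr1+ cells, against -0.37, 0.36 and -0.17 in Sca1hi cells and -0.10, 0.12 and 0.24 in Sca1lo cells. Taken as a log2 ratio, Eno3 to Eno1 was -0.57, -1.35 and -0.76 in Kit-Gr1- cells and -2.02, -2.30 and -1.90 in Gr1+ cells, and lay between -1.66 and -1.04 in Kit+Gr1- cells. The Gr1+ arrays lay below all other sorted arrays, with a difference of -0.85 from Kit+Gr1- cells (exact permutation p = 0.0238, adjusted p = 0.155) and -0.97, -0.64 and -0.71 within slides. Eno2 had levels of -4.77, -4.54 and -5.43 in Kit-Gr1- cells and -4.94, -4.87 and -3.05 in Gr1+ cells, against -4.74, -5.82 and -2.49 in Sca1hi cells and -4.54, -4.82 and -2.74 in Sca1lo cells. Its highest arrays were the 3 compressed ones, and no difference passed.

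The final steps showed no call in the main fit. Pkm, pyruvate kinase, had levels of 5.04, 5.87 and 5.60 in Kit-Gr1- cells and 5.72, 6.08 and 5.66 in Gr1+ cells, against 5.07, 5.78 and 4.49 in Sca1hi cells and 5.39, 5.84 and 5.25 in Sca1lo cells. It was read by 1 probe, which cannot separate the M1 and M2 forms that arise by splicing. Ldha, the lactate dehydrogenase subunit of glycolytic tissues, had levels of 7.15, 7.66 and 7.36 in Kit-Gr1- cells and 6.70, 7.11 and 6.82 in Gr1+ cells, against 6.57, 7.22 and 5.97 in Sca1hi cells and 7.10, 7.11 and 6.94 in Sca1lo cells. Kit-Gr1- cells exceeded Gr1+ cells on every array, though the difference of 0.51 ± 0.31 did not pass (adjusted p = 0.575). This difference passed in 3 of 28 alternatives, among them quantile normalization (0.445, adjusted p = 0.0203). Ldhb, the heart form, had levels of -0.48, -0.81 and -1.46 in Kit-Gr1- cells and 0.14, -0.76 and -1.24 in Gr1+ cells, against -0.05, -1.64 and -0.47 in Sca1hi cells and -0.21, -0.70 and -0.05 in Sca1lo cells. Pgk1, phosphoglycerate kinase, had levels of 6.79, 7.59 and 7.28 in Kit-Gr1- cells and 6.95, 7.51 and 7.21 in Gr1+ cells, against 6.68, 7.41 and 6.11 in Sca1hi cells and 6.97, 7.43 and 6.89 in Sca1lo cells. Its probes both measured 0.31 in Gr1+ versus Kit+Gr1- cells, and Pgam1, the mutase that follows, measured 0.51 ± 0.31. The sorted groups overlapped for Ldhb, Pgk1 and Pgam1.

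In the pentose phosphate pathway 1 of 3 genes rose in Gr1+ versus Kit+Gr1- cells (4.19% of all genes did). It was G6pdx, the X-linked dehydrogenase that opens it and makes NADPH. Its level was 3.69, 4.30 and 4.10 in Kit-Gr1- cells and 4.46, 5.16 and 4.79 in Gr1+ cells, against 3.11, 3.62 and 2.49 in Sca1hi cells and 3.66, 3.92 and 3.35 in Sca1lo cells. The Gr1+ arrays lay above all other sorted arrays, with Kit-Gr1- arrays partly above the Kit+Gr1- ones. G6pdx rose by 1.45 ± 0.25 in Gr1+ versus Kit+Gr1- cells (2.72-fold, adjusted p = 0.00355), with 1.07, 1.24 and 1.17 within slides and 1.23 without the compressed arrays (adjusted p = 0.0109). G6pdx lost this call with array medians and in the fit over all 14 arrays. In Kit-Gr1- versus Kit+Gr1- cells it measured 0.67 ± 0.25 (adjusted p = 0.601), with 0.31, 0.38 and 0.48 within slides. Kit-Gr1- and Gr1+ cells did not overlap, but their difference of -0.77 ± 0.29 did not pass (adjusted p = 0.203), while it passed with slide as a block (adjusted p = 0.00892). The transketolase gene Tkt and the transaldolase gene Taldo1, which rearrange the sugars, measured 0.38 ± 0.26 and 0.56 ± 0.26 in Gr1+ versus Kit+Gr1- cells and did not pass. The Taldo1 levels of 7.34 to 7.55 in Gr1+ cells lay above the 6.13 to 7.32 of Kit+Gr1- cells.

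Over the 31 genes, 6 lay higher on every Gr1+ array than on any Kit+Gr1- array (6.13% of all genes did) and 2 lower (3.69%). Their median difference was 0.38, against -0.04 over all genes tested, and with slide as a block both medians were 0.17. Differences above 0 were found for 22 of the 31, against 44.9% of all genes. That was 22 against 57.3% without the compressed arrays and 21 against 64.4% with slide as a block. In Kit-Gr1- versus Gr1+ cells 5 lay higher (13.6% of all genes) and 6 lower (14.2%), 9 of the 31 had a difference above 0 (33.4% of all genes), and the median was -0.20 over the 31 genes and over all genes. In Kit-Gr1- versus Kit+Gr1- cells, 0 lay higher (3.43%) and 0 lower (2.41%). There 23 of the 31 were above 0, against 30.8% of all genes, at a median of 0.21 against -0.23 over all genes. These medians shrank to 0.06 against -0.08 without the compressed arrays and to 0.02 against -0.05 with slide as a block. In the same order, 19 of the 31 (35.4% of all genes) and 17 (38.4%) were above 0. Scaling to array medians moved the median of all genes in that comparison to 0.09 and that of the 31 to 0.53. In Kit-Gr1- versus Gr1+ cells it turned both medians to 0.10.

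Within the Kit+Gr1- gate, none of the 31 genes passed limma's test between Sca1hi and Sca1lo cells. The median difference was -0.28, against -0.03 over all genes, and became -0.08 against -0.10 without the compressed arrays, of which this comparison has 1 on each side. Only Slc16a1 of the 31 did not overlap, being lower on every Sca1hi array (-0.33 ± 0.18, adjusted p = 0.999), against 1.73% of all genes lower without overlap; 0 were higher without overlap, against 1.31%. Differences were above 0 for 5 of the 31 and for 46.8% of all genes. Without the compressed arrays these were 10 and 35.3%, and with slide as a block 3 and 46.3%. In the main fit the largest difference was that of G6pdx, at -0.57 ± 0.29 (adjusted p = 0.999), and the groups overlapped. The log2 ratio of Pfkfb4 to Pfkfb3 was -1.49 ± 0.00693 in Sca1hi cells and -1.37 ± 0.0365 in Sca1lo cells (SD, n = 3 each), without overlap, and 3 against 3 arrays cannot give an exact permutation p under 0.1.

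**Figure D4:**
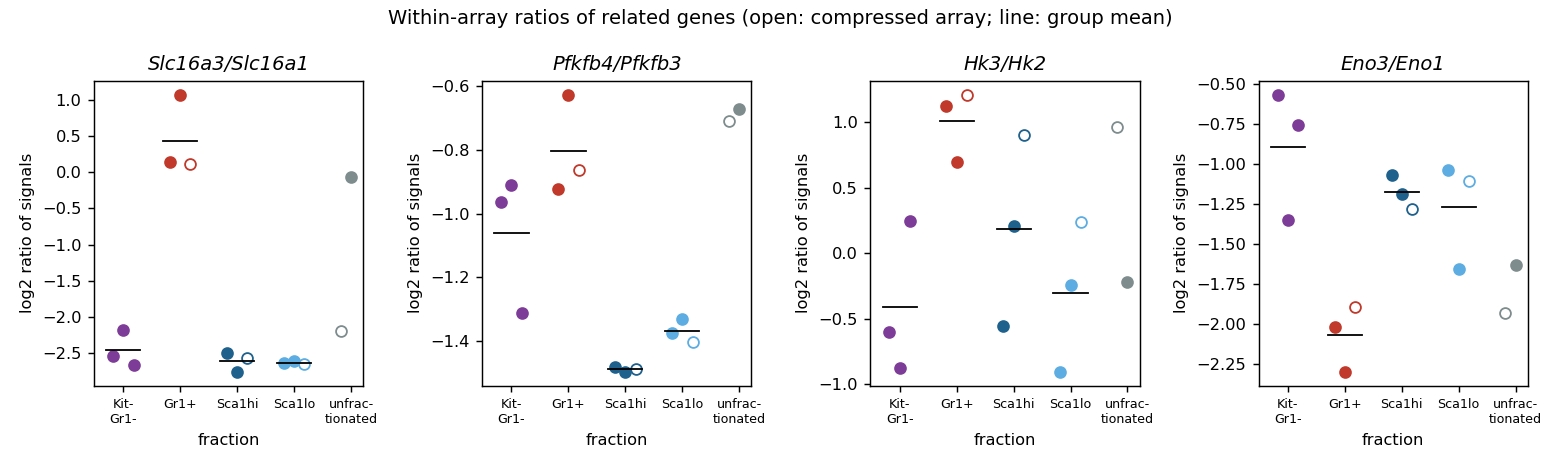
Log2 ratio of the signals of related genes on the same array, by fraction, with open points for compressed arrays and lines at the means of 3. Slc16a3 to Slc16a1 lies between 0.11 and 1.07 in Gr1+ cells and between -2.75 and -2.18 on all other sorted arrays; Hk3 to Hk2 overlaps between groups.

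Isoform use was compared through 13 such ratios. Of the 26 tests of Kit-Gr1- or Gr1+ cells against Kit+Gr1- cells, 4 reached the smallest possible p (Slc16a3 to Slc16a1 and Eno3 to Eno1 in Gr1+ cells, Pfkfb4 to Pfkfb3 in both), and 0 passed after adjustment, at a smallest adjusted p of 0.155. With 26 tests, this design could pass the threshold only if many more ratios had reached that p. The ratios Pfkm to Pfkl, Pfkp to Pfkl, Aldoc to Aldoa, Eno2 to Eno1 and Ldhb to Ldha overlapped between groups in both tests, with differences from -0.97 to 0.20. Slc2a3 to Slc2a1 averaged 2.38 ± 0.264 in Kit-Gr1- cells and 1.59 ± 0.184 in Gr1+ cells (SD, n = 3 each) without overlap, but both overlapped the Kit+Gr1- arrays, which averaged 1.91 ± 0.453 (SD, n = 6).

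Unfractionated cells were left out of the fits because their pair differed so much, and are given as values. In unfractionated replicate 2, Slc16a3 stood at 1.65, Slc16a1 at 1.73, Hk3 at 3.73, Pfkfb4 at 2.45, G6pdx at 4.96 and Bpgm at 0.48. The levels of Slc16a1, Pfkfb4 and G6pdx lay within the Gr1+ range, and those of Slc16a3, Hk3 and Bpgm between the Gr1+ arrays and the Kit+Gr1- mean. In unfractionated replicate 1, whose signals were the most compressed, those levels were -0.41, 1.78, 0.83, -0.90, 1.20 and -1.47 in the same order, and 26 of the 31 genes lay outside the range of the sorted arrays. The ratio of Slc16a3 to Slc16a1 was -0.07 in replicate 2 and -2.20 in replicate 1.

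Neighbouring genes of carbohydrate metabolism were read from 7 lists holding 125 other genes, of which 115 were tested. In Gr1+ versus Kit+Gr1- cells 20 of these rose and 4 fell, against 4.19% and 2.82% of all genes. Without the compressed arrays 15 rose and 10 fell, against 5.23% and 8.8%, and the calls of Gys1, Slc2a6, Idh1, Nadk and Adpgk ended (adjusted p from 0.0557 to 0.105). With the replicate block 23 rose and 6 fell, against 5.29% and 3.79%. With array medians 2 of the 24 calls were kept, those of Pygl (adjusted p = 0.00305) and Emb (adjusted p = 0.00658). Glycogen metabolism had 5 of 19 genes rising and 0 falling, and 4 and 1 without the compressed arrays. Pygl, the liver form of glycogen phosphorylase, rose by 2.13 ± 0.26 (4.39-fold, adjusted p = 0.000262), Gyg, the primer of glycogen synthesis, by 1.61 ± 0.24 (adjusted p = 0.0012), Gys1, glycogen synthase, by 1.37 ± 0.30 (adjusted p = 0.0126) and Gbe1, the branching enzyme, by 1.35 ± 0.29 (adjusted p = 0.0136). Genes that build glycogen and genes that break it down were thus both among those that rose. The glycogen median was 0.29, against -0.04 over all genes.

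Among other carriers, 3 of 15 genes rose and 0 fell in Gr1+ cells, against 4.19% and 2.82% of all genes. Without the compressed arrays 2 rose and 0 fell, against 5.23% and 8.8%. Emb encodes embigin, a chaperone that can bring monocarboxylate carriers to the cell surface. Its level was 0.82, 2.41 and 2.56 in Kit-Gr1- cells and 4.87, 5.21 and 5.13 in Gr1+ cells, against 1.21, 2.50 and 2.10 in Sca1hi cells and 1.53, 2.82 and 2.19 in Sca1lo cells. It rose by 3.01 ± 0.40 (8.05-fold, adjusted p = 0.000488). Slc2a6, a glucose carrier family member of leukocytes, rose by 1.16 ± 0.30, and the lactate carrier gene Slc16a8 by 0.72 ± 0.16. Slc16a7, another monocarboxylate carrier, was the single listed gene called in Kit-Gr1- versus Kit+Gr1- cells, at -1.33 ± 0.22 (adjusted p = 0.023), and was also lower in Kit-Gr1- than in Gr1+ cells (-1.13 ± 0.26, adjusted p = 0.0216).

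Of 20 genes of the hypoxia response outside glycolysis, 3 rose in Gr1+ cells and 0 fell, against 4.19% and 2.82% of all genes. The list holds factor subunit genes (Hif1a, Hif3a, Epas1 and Arnt) beside genes that answer to the factor. Hif1a, the hypoxia-inducible factor subunit itself, had levels of -0.57, 0.14 and -0.03 in Kit-Gr1- cells and 1.24, 1.23 and 1.14 in Gr1+ cells, against -0.50, -0.20 and -0.70 in Sca1hi cells and -0.39, -0.03 and -0.20 in Sca1lo cells. It rose by 1.54 ± 0.19 (adjusted p = 0.000254), while Mxi1 and Hilpda rose by 1.26 and 1.01. The other 17 did not pass, and the list's median was 0.21. The counts were 3 and 0 without the compressed arrays, against 5.23% and 8.8% of all genes. They were 6 and 0 with the replicate block, which added Ankrd37, Egln3 and P4ha1, against 5.29% and 3.79%.

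Of 12 other genes that supply or spend NADPH, 3 rose (Gsr, glutathione reductase, by 1.66 ± 0.24; Idh1 by 1.07 ± 0.29; the NAD kinase gene Nadk by 0.75 ± 0.19). Mthfd1, a folate enzyme, fell by 0.91 on the log2 scale. Of the 12, 1 rose and 3 fell without the compressed arrays, and with the replicate block 3 rose and 3 fell. Of all genes, 4.19% rose and 2.82% fell in the main fit. These shares were 5.23% and 8.8% without the compressed arrays and 5.29% and 3.79% with the replicate block. Of 11 further pentose phosphate genes Rpe rose by 0.74 ± 0.18. The ribose phosphate kinases Prps2 and Prps1, which start nucleotide synthesis, fell by 1.15 and 0.98 on the log2 scale, and the counts stayed at 1 and 2 without the compressed arrays. Of 11 genes of pyruvate entry and oxidation both subunits of the mitochondrial pyruvate carrier rose, Mpc1 by 1.13 ± 0.18 and Mpc2 by 0.84 ± 0.20, and without the compressed arrays 2 rose and 1 fell. Of 27 further glycolysis and gluconeogenesis genes, Ldhc (1.66), Fbp1 (0.85) and Adpgk (0.78) rose and Galk1, galactokinase, fell 2.15-fold, and without the compressed arrays 2 rose and 3 fell.

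**Figure D5:**
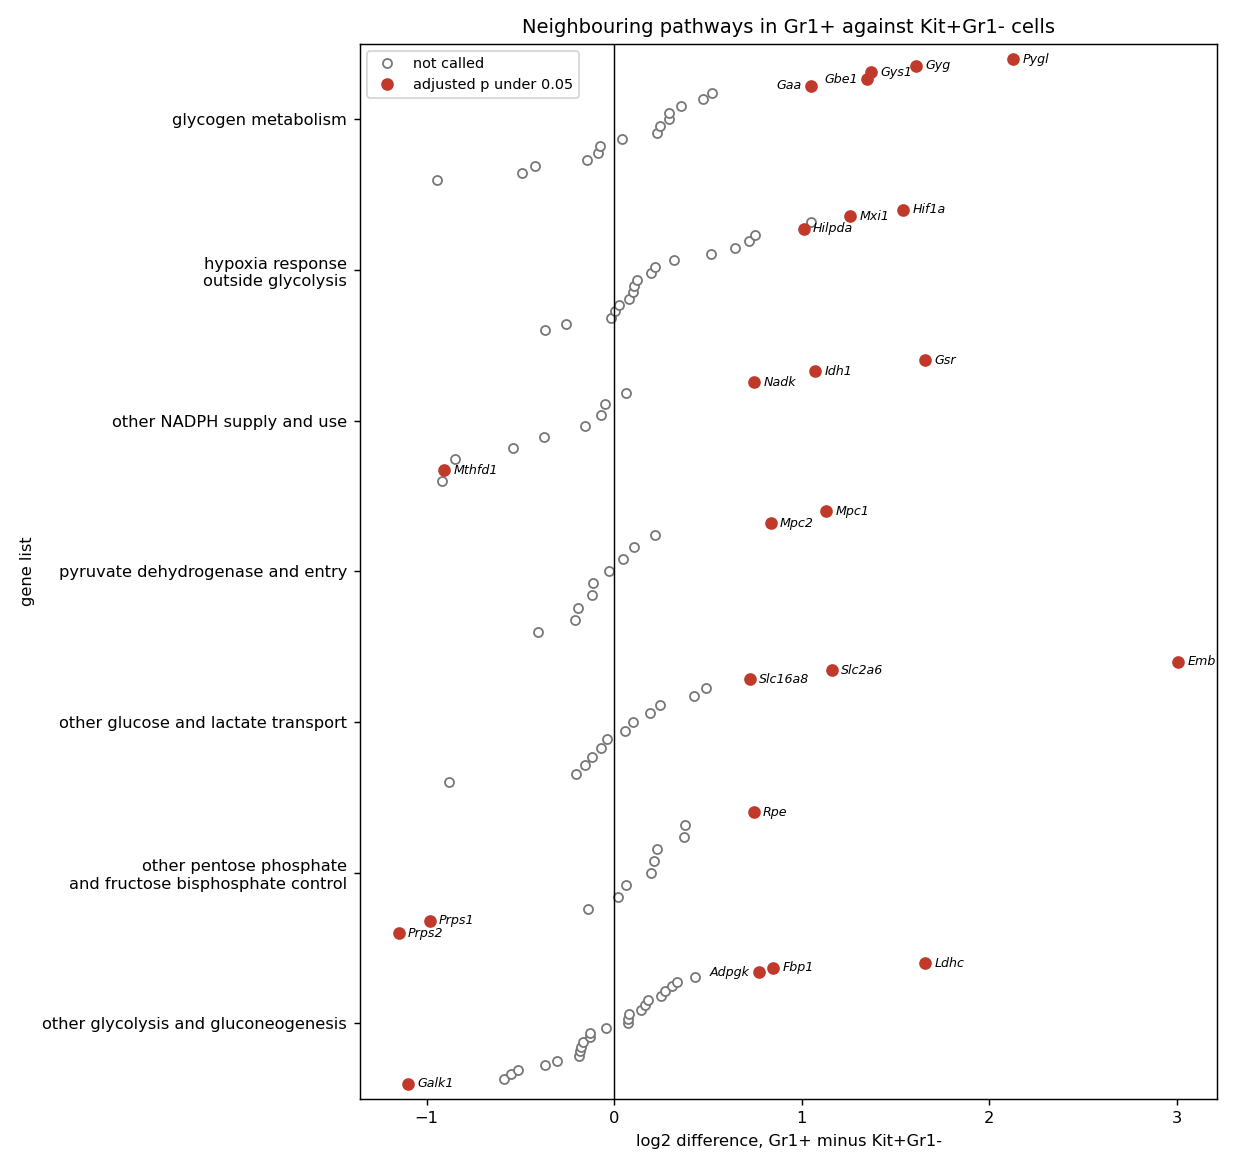
Log2 difference in Gr1+ versus Kit+Gr1- cells for the 115 tested genes of the 7 neighbouring lists, 1 point per gene, filled and named where the adjusted p was under 0.05. The 20 filled points right of 0 include Emb at 3.01 and Pygl at 2.13, and 4 lie left of 0.

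In Kit-Gr1- versus Gr1+ cells, 5 of the 115 were higher and 9 lower, against 2.37% and 2.64% of all genes. Without the compressed arrays 10 were higher and 12 lower, against 7.27% and 4.29%, and the calls of Gys1 (adjusted p = 0.0826) and Mxi1 (adjusted p = 0.052) ended. The higher genes were Prps1 (1.44), Aldh1l1 (1.51), Mthfd1 (1.04), Prps2 (0.94) and Minpp1 (0.82). Among the lower ones were Emb (-3.14), Pygl (-2.17), Gyg (-1.45), Hif1a (-1.36) and Gsr (-1.34).

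Markers of blood lineages moved with the same fractions. In Gr1+ versus Kit+Gr1- cells 7 of 7 neutrophil markers rose (median 7.06), 4 of 4 monocyte markers, 3 of 4 eosinophil markers and 4 of 6 mast cell and basophil markers, and 0 of 3 lymphoid markers. The summed linear signal of the neutrophil markers, relative to the array's 75th percentile, was 5.25 to 38.3 in Kit-Gr1- cells and 610 to 840 in Gr1+ cells, against 25 to 170 in Kit+Gr1- cells. That of the monocyte markers was 7.68 to 37.9 in Kit-Gr1- cells and 211 to 343 in Gr1+ cells, against 2.28 to 16.4 in Kit+Gr1- cells. Such sums add probes that have no common scale, so the brightest probe weighs most. Mpo was the brightest neutrophil marker on every sorted array. Its level was 9 to 9.23 in Gr1+ cells, where Ltf came next at 4.95 to 7.05. Ccl6 was the brightest monocyte marker on every sorted array, at 7.49 to 8.26 in Gr1+ cells. Both sums thus largely follow these single genes. In Kit-Gr1- versus Kit+Gr1- cells 5 of 8 red cell markers rose (median 2.82), with sums of 37.3 to 58.7 in Kit-Gr1- cells and 9.96 to 11.4 in Gr1+ cells, against 7.57 to 16.3 in Kit+Gr1- cells. Those of eosinophil markers were 0.771 to 2.94 in Kit-Gr1- cells and 104 to 271 in Gr1+ cells, against 0.369 to 3.02 in Kit+Gr1- cells. Sums of mast cell and basophil markers overlapped, at 140 to 319 in Kit-Gr1- cells and 207 to 442 in Gr1+ cells, against 72.6 to 202 in Kit+Gr1- cells. Of 3 megakaryocyte markers 2 rose in Kit-Gr1- versus Kit+Gr1- cells, with sums of 50.7 to 95.0 in Kit-Gr1- cells and 15.5 to 21.4 in Gr1+ cells, against 14.6 to 37.9 in Kit+Gr1- cells. Of 3 progenitor markers, Kit and Cd34 fell in Kit-Gr1- versus Kit+Gr1- cells. In Gr1+ versus Kit+Gr1- cells Kit (0.31) and Cd34 (-0.23) did not pass, and Ly6a rose by 4.16 ± 0.27 (adjusted p = 4.18e-06). Progenitor sums were 2.05 to 4.82 in Kit-Gr1- cells and 14.7 to 18 in Gr1+ cells, against 9.12 to 13.5 in Kit+Gr1- cells. No marker was at 0, and Camp and Lcn2 were not well above background on every array outside the Gr1+ fraction. The part of these lineage differences in the changes of the glycolytic genes was not tested.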

How the data were processed

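Single-colour Cy3 arrays measured RNA of 14 samples. Agilent Feature Extraction 10.1.1.1 read the scans, per the file headers. Intensity is taken from the deposited files' processed signal, from which that program had subtracted background. The deposited series matrix holds log2 values equal to the log2 of that signal (largest difference 5e-09), with no scaling between arrays. For the array design the headers name build mm8.

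Control spots were set aside and spots of a probe averaged (43379 spots, 41174 probes). A RefSeq table on GRCm38.p6 named 23366 probes through their accession (16531 symbols) and left 17808 with the name in the files. From log2 signal each array's 75th percentile was subtracted. The filter asked for 3 or more of the 12 sorted arrays well above background, and a gene was represented by its kept probe of highest mean (31256 genes, 16262 with a symbol). R 4.3.3 with limma 3.58.1 (lmFit, eBayes with trend) fitted 4 groups on 12 arrays with no covariates, two-sided, and p-values were adjusted by Benjamini-Hochberg over all genes. The Kit+Gr1- comparator is the mean of both Sca1 groups. The number of arrays limits the precision, and the spread is pooled over the 4 groups. Ratios used exact permutation tests (scipy 1.17.1). Figures were drawn with matplotlib 3.10.9, and tables made with numpy 2.4.6 and pandas 2.3.3 under Python 3.11.15.

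The genes followed, the gene lists, the markers and the choice to fit 12 arrays were made with earlier results of these data known. Genes with values on every array are those called in any comparison or among the 8 largest differences of a comparison; of each other list, up to 4 called genes were to be named per comparison, and a few listed genes beyond that were named after their values were seen. Alternatives covered scaling (array median, quantile, unscaled series values), background correction (normexp, offset 50, on median signals because the files hold no mean signal), filters on dim probes and probe choice. They also covered all 14 arrays, no compressed arrays, slide or replicate number as a block, array weights, eBayes without trend, each Sca1 group alone and each array left out. A 2-fold minimum was counted apart from these alternatives. In the main fit it left 4 higher and 1 lower of the 31 in Gr1+ versus Kit+Gr1- cells (947 and 391 of all 31256 genes). In Kit-Gr1- versus Gr1+ cells it left 1 and 3 (495 and 740). Slc16a1 did not reach it in either comparison. Array weights were estimated gene by gene, a method chosen after the default one (REML) had stopped before convergence and its counts had been seen. Added after seeing the data were 3 alternatives: quantile normalization or slide as a block without the compressed arrays, and the REML weights. Whether replicate numbers pair arrays was checked by correlating deviations from group means. Same-numbered Gr1+ and Kit+Gr1- arrays correlated from 0.591 to 0.832 (6 of 6 over 0.1), and Sca1hi and Sca1lo arrays from 0.655 to 0.823. Differently numbered Gr1+ and Kit+Gr1- arrays correlated from -0.812 to 0.603, positive between numbers 1 and 2 and negative with number 3. The 3 compressed arrays share number 3, so pairing cannot be told apart from shared compression. The replicate block thus rests on a pairing read from the data and not from the labels. Kit-Gr1- arrays correlated from -0.288 to 0.171 with Kit+Gr1- arrays and from -0.0119 to 0.154 with Gr1+ arrays and do not count as paired.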

Additional observations from a re-analysis of the deposited data

How the results depend on the processing

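The counts of called genes among the 31 depended on how the arrays were treated, and the share of all genes called moved too. In Gr1+ versus Kit+Gr1- cells, with 6 called (7.01% of all genes), array medians gave 1 (2.06%), all 14 arrays 2 (2.04%), quantile normalization 11 (12.4%), array weights 12 (19.6%), and, among the added alternatives, slide as a block without the compressed arrays 13 (23.5%) and REML weights 20 (27%). In Kit-Gr1- versus Gr1+ cells, with 5 called (5.01%), array medians gave 0 (1.71%), all 14 arrays 1 (1.53%), eBayes without trend 3 (3.19%), quantile normalization 10 (8.56%), slide as a block 11 (13%) and array weights 10 (16.9%), and without the compressed arrays quantile gave 9 (13.6%) and slide 13 (19.8%), with REML weights at 11 (20.4%). In Kit-Gr1- versus Kit+Gr1- cells, with 0 called (0.323%), array weights gave 15 (14.4%), slide as a block without the compressed arrays 3 (2.99%) and REML weights 19 (29.2%). Between Sca1hi and Sca1lo cells the REML weights, which stopped before convergence, gave 4 lower in Sca1hi cells (Aldoa, Eno3, G6pdx and Ldha; 7.11% of all genes called), and the other alternatives 0. Leaving out 1 array in turn gave 3 to 8 calls in Gr1+ versus Kit+Gr1- cells. There were 3 without Gr1+ replicate 2 (2.87% of all genes) and 8 without Sca1hi replicate 3 (14.4%). In Kit-Gr1- versus Gr1+ cells it gave 2 to 8. There were 2 without Gr1+ replicate 2 (2.23%), 3 without Kit-Gr1- replicate 1 (2.72%) and 8 without Sca1hi replicate 3 (11.9%). The other comparisons had 0 calls. All genes stood there at 0.0704% to 0.762% (Kit-Gr1- versus Kit+Gr1-) and 0% to 0.0032% (Sca1hi versus Sca1lo).

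The 11 single-gene calls were tried under 320 alternatives in all, of which 276 kept the call, 44 ended it and 0 turned its direction. Array medians ended 10 of the 11, all but Slc16a3 in Gr1+ versus Kit+Gr1- cells, and the fit over all 14 arrays ended 8. Leaving out Gr1+ replicate 2 ended 6. The causes were not tested. With the replicate block 9 genes were called in Gr1+ versus Kit+Gr1- cells (9.08% of all genes) and 5 in Kit-Gr1- versus Gr1+ cells (6.82%). It called 0 in Kit-Gr1- versus Kit+Gr1- cells (0.921%) and between Sca1hi and Sca1lo cells (0.0064%). Beyond Gpi1, Eno1 and Slc2a1 in Gr1+ versus Kit+Gr1- cells it changed no call among the 31. Dim signal limits Eno2 alone among the 31 genes.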
